A study of Mus musculus with 2 samples.

Results

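Imprinted genes are transcribed mainly from the copy inherited from 1 parent, and many of them set the pace of growth before birth and help to hold stem cells in a resting state after it. The 10 genes described here, *H19*, *Igf2*, *Igf2r*, *Meg3*, *Dlk1*, *Peg3*, *Plagl1*, *Cdkn1c*, *Grb10* and *Mest*, were taken by name from a raw count table of 49492 genes in mouse mammary basal cells, and all 10 were found. As background, *H19*, *Igf2r*, *Meg3*, *Cdkn1c* and *Grb10* are expressed mainly from the maternal copy in most tissues, and *Igf2*, *Dlk1*, *Peg3*, *Plagl1* and *Mest* from the paternal copy. Imprinted genes lie in clusters, called domains, in which a methylated control region sets which copy is active. Counts per gene do not separate the parental copies, so imprinting itself was not measured.

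Basal cells, the contractile outer cells of mammary ducts and alveoli, which also hold mammary stem cells, were sorted as lineage negative, CD24 positive and CD29 high cells from adult wild-type female mice, after removal of cells with CD45, CD31 or TER119. How many mice gave each library is not given in the sources used here. Mice of the CL basal group received repeated intraperitoneal injections of clodronate liposomes (CL), vesicles that are eaten by macrophages and kill them. The Ctrl basal group is labelled as untreated, while the series' design text names saline as its treatment. Both samples are labelled WT and day 7, and the study's purpose was to learn how the loss of macrophages changes basal cells. Liposomes without clodronate were not among these samples, so effects of macrophage loss, of the drug and of the vesicles cannot be told apart.

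Each group had 1 library, with 38962512 counts in CL basal against 37846008 in Ctrl basal. There is therefore no replicate, no difference below has a replicate check, and no p-value is given. Intervals of 95% are exact binomial (Clopper-Pearson) intervals that cover counting error only. Low counts were more often even than odd (68.7% of counts from 1 to 20 in CL basal and 67.9% in Ctrl basal), as happens when both mates of a read pair are counted, so each interval was also computed from counts divided by 2 and is called the halved interval. In sum, 10 basal and myoepithelial markers, of which *Myh11* and *Krt14* had the most counts, reached 20720 CPM (counts scaled to the size of the library) in CL basal against 19780 in Ctrl basal. A count of 0 allows up to 3 counts, or 0.078 CPM in CL basal against 0.0782 in Ctrl basal.

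Among the 10 genes, *Igf2*, *H19* and *Mest* were lower in CL basal, by 1.43-fold, 1.42-fold and 1.58-fold. *Peg3*, *Grb10*, *Plagl1* and *Igf2r* were higher, by 1.30-fold, 1.21-fold, 1.17-fold and 1.15-fold. For *Meg3*, *Cdkn1c* and *Dlk1* no difference was detectable from the halved intervals. None of the 10 genes differed by 2-fold or more in either direction, while of the 17356 genes that reached 20 counts in sum, called tested below although no statistical test was run, 4.79% were at least 2-fold lower and 2.07% at least 2-fold higher. The 95% interval lay wholly below no change for 3 of the 10 genes and wholly above it for 5, against 25.4% and 25.2% of all tested genes. With halved intervals these were 3 and 4 genes, against 17.4% and 18.5%. The median log2 fold change of the 10 genes was 0.13, and that of all tested genes was -0.01.

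Some of these genes carry small RNAs within their transcripts, and these are shown because a read over them may have been counted for the small RNA, for its host or for both. The sequences are mature microRNAs from RefSeq (GRCm38.p6), written 5′ to 3′ with the seed, bases 2 to 8, in capitals. *Mir675* lies in an exon of *H19* (chr7:142577064-142577147, minus strand) and *Mir770* in an exon of *Meg3* (chr12:109563692-109563785, plus strand). *Mir335* lies in *Mest* and *Mir483* in *Igf2*, both outside the exons counted.
miR-675-5p: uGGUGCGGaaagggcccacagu
miR-675-3p: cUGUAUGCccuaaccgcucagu
miR-770-5p: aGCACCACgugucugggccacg
miR-770-3p: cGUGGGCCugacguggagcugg
miR-335-5p: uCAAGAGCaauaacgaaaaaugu
miR-335-3p: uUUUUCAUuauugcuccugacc
miR-483-5p: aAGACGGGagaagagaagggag
miR-483-3p: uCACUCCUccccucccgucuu
The 8 seeds differ from each other, and each was found in 1 of the 1738 mature microRNAs in the table. The stretch of *H19* that holds *Mir675* had 23 counts in CL basal against 31 in Ctrl basal, and the stretch of *Meg3* that holds *Mir770* had 4 and 17. *Mir335* and *Mir483* had 0 counts in both libraries. The libraries were made with an mRNA kit, so the counts of these entries are not levels of the mature microRNAs.

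Ordered by level per length, the 10 genes spanned a wide range (the plot of levels). *Plagl1*, a zinc finger transcription factor that restrains proliferation, was the highest, at 14.5 CPM per kb of exon in CL basal against 12.4 in Ctrl basal. *Igf2r* followed at 9.83 and 8.56 CPM per kb. *Dlk1*, a transmembrane protein that blocks fat cell differentiation, was the lowest at 0.12 and 0.111 CPM per kb, and 95.9% of tested genes had a mean level at least as high. The order of the others differed between the libraries in 2 places. *Igf2* stood above *Cdkn1c* in Ctrl basal (6.42 and 6.38 CPM per kb) and below it in CL basal (4.49 and 6.98). *H19* stood above *Peg3* in Ctrl basal (4.51 and 3.05) and below it in CL basal (3.17 and 3.98). Neighbours in this order cannot be set against a spread between samples, since each level is 1 library.

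**Figure D1:**
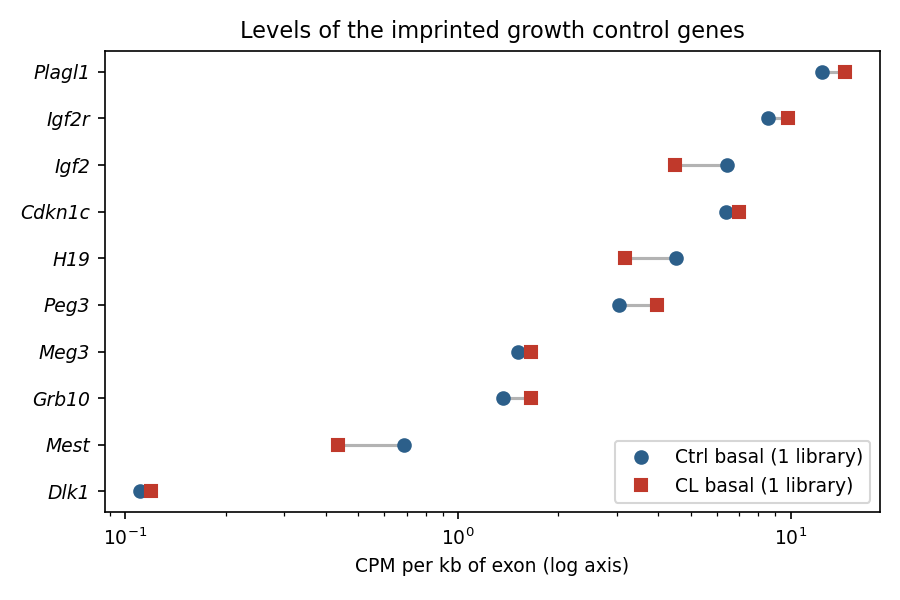
Level of each imprinted gene in CPM per kb of exon (log axis) in Ctrl basal (blue circles) and CL basal (red squares), 1 library each, with no error bars because there are no replicates. *Plagl1* is highest and *Dlk1* lowest in both libraries, and the red square lies left of the blue circle for *Igf2*, *H19* and *Mest* and right of it for the other 7 genes.

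*Igf2* (chromosome 7, 142650766 to 142666816, GRCm38, minus strand) encodes insulin-like growth factor 2, a paternally expressed growth factor of the embryo. It had 988 counts in CL basal against 1410 in Ctrl basal, or 25.7 and 36.8 CPM. The log2 fold change was -0.52 (95% interval -0.64 to -0.40, halved interval -0.69 to -0.35). In its count class, the 5592 genes with 1000 or more and under 10000 counts in sum, 3.24% were as low or lower, so *Igf2* lay near the lower edge of genes of its abundance. Of its 5723 exonic bases, 98 are shared with *Igf2os* on the other strand, which had 6 counts in each library.

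*H19* (chromosome 7, 142575529 to 142578143, minus strand) is a maternally expressed long noncoding RNA that lies next to *Igf2* and shares enhancers with it. It had 289 counts in CL basal against 410 in Ctrl basal, or 7.52 and 10.7 CPM. The log2 fold change was -0.51 (-0.73 to -0.29, halved interval -0.83 to -0.19). In its count class, the 6410 genes with 100 or more and under 1000 counts, 15.4% were as low or lower, so the size of this change was common at its abundance. Besides *Mir675*, the opposite-strand entries *Gm27483* and *Gm27786* lie wholly within its exons. *Gm27483* had 30 counts in CL basal against 47 in Ctrl basal, and *Gm27786*, close to the start of *H19*, had 65 and 57. Since the use of strand in counting is not given in the sources used here, reads of these entries and of *H19* cannot be told apart there.

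The ratio of *H19* to *Igf2* was nearly the same in both libraries. Within CL basal there were 0.293 *H19* counts per *Igf2* count (95% interval 0.256 to 0.334), and within Ctrl basal 0.291 (0.260 to 0.325). Such a ratio is taken inside a library, so scaling between libraries does not enter it. The log2 change of the ratio was 0.01, with an exact conditional interval of -0.24 to 0.26. The maternally expressed RNA and the paternally expressed growth factor of this domain were therefore lower by a like amount, within the counting error given.

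*Mest* (chromosome 6, 30723547 to 30748465, plus strand), a paternally expressed gene for a hydrolase-like membrane protein, had 66 counts in CL basal against 104 in Ctrl basal. On the log2 scale the difference was -0.64 (-1.13 to -0.20), the lowest of the 10 genes and the only value past 1.5-fold, a size passed downward by 11.7% of tested genes and upward by 6.33%. The halved interval reached from -1.34 to -0.003, so this change was barely outside the counting error of read pairs. Of the 3945 exonic bases of *Mest*, 912 overlap *Copg2* on the other strand, which had 205 and 266 counts (-0.38, -0.65 to -0.11, halved interval -0.77 to 0.003). Reads in that overlap could belong to either gene.

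The 250 bases before a start site of *Igf2* and of *Mest* are shown because both protein-coding genes were lower. They are the RefSeq windows (GRCm38.p6) outside the counted exons of their own gene that held the most CpG, the dinucleotide at which imprinted control regions are methylated. They are written 5′ to 3′ with each CpG in capitals.
Igf2, chr7:142657497-142657746, minus strand: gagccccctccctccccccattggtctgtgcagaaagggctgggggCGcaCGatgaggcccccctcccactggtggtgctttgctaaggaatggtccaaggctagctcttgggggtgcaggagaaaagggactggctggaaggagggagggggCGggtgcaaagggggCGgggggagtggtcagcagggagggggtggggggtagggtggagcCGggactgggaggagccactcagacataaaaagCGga
Mest, chr6:30737800-30738049, plus strand: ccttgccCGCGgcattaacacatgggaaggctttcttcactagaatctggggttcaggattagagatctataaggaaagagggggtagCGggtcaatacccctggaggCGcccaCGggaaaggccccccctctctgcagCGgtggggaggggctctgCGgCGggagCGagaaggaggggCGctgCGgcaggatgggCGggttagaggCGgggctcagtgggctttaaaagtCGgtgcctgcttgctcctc
The *Igf2* window holds 6 CpG and the *Mest* window 14. Of 32851 such windows, 50.4% hold at least 6 and 29.4% at least 14. An *Igf2* window that overlaps its counted exons holds 22 CpG, a number reached by 14.8% of all windows. RefSeq windows were matched for 8 of the 10 genes, and the most CpG-rich of them was a *Grb10* window with 40, a number reached by 1.31% of all windows. The letters TATAAA, on either strand, were in 1 of the 15 windows of these genes, upstream of *Meg3*, and in 12.4% of all windows. No methylation was measured here.

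A receptor and an adaptor of the same growth pathway lay on the other side of 0 from *Igf2*. *Igf2r* (chromosome 17, 12682406 to 12769664, minus strand), which binds IGF2 and carries it to lysosomes for degradation, had 3568 counts in CL basal against 3099 in Ctrl basal, or 92.8 and 80.8 CPM. Its log2 fold change was 0.20 (0.13 to 0.27, halved interval 0.10 to 0.30), a change matched or passed by 21.6% of genes of its abundance class. *Grb10* (chromosome 11, 11930508 to 12038683, minus strand), an adaptor that dampens signals from the insulin and IGF1 receptors, had 578 and 475 counts. Its log2 fold change was 0.28 (0.10 to 0.46, halved interval 0.03 to 0.53). The ratio of *Igf2* to *Igf2r* counts was 0.277 in CL basal (0.258 to 0.297) against 0.455 in Ctrl basal (0.427 to 0.485), a log2 change of -0.72 (-0.85 to -0.58, halved interval -0.91 to -0.52). This ratio, too, is taken inside each library and does not depend on scaling.

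*Peg3* (chromosome 7, 6703892 to 6730431, minus strand), a paternally expressed zinc finger protein that is found in several kinds of adult stem cell, had the highest log2 fold change of the 10. It had 2038 counts in CL basal against 1560 in Ctrl basal, or 53.0 and 40.7 CPM. The log2 fold change was 0.38 (0.29 to 0.48, halved interval 0.25 to 0.52), and 5.69% of its count class were as high or higher. *Plagl1* (chromosome 10, 13060504 to 13131694, plus strand) had 4364 and 3720 counts, the most of the 10 genes. Its log2 fold change was 0.23 (0.16 to 0.29, halved interval 0.14 to 0.32), and 18.6% of the same class were as high or higher. No other row of the table overlapped *Peg3*, and the overlap of *Plagl1* with *Gm27741* was 38 bases with 1 and 2 counts.

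*Cdkn1c* (chromosome 7, 143458339 to 143461050, minus strand) encodes p57, an inhibitor of cyclin-dependent kinases that keeps several kinds of stem cell out of the cell cycle. It had 547 counts in CL basal against 499 in Ctrl basal, which gives a log2 fold change of 0.13 (-0.05 to 0.31), an interval that includes no change at this depth. The opposite-strand entry *Gm44732* shares 625 exonic bases with it and had 334 and 290 counts, and reads over these bases, 30.7% of the exonic length of *Cdkn1c*, could belong to either. Its non-imprinted relatives were *Cdkn1a* (p21), at 3676 and 3324 counts (0.14, 0.07 to 0.21), and *Cdkn1b* (p27), at 904 and 930 (-0.04, -0.18 to 0.09). *Cdkn1a* was the highest of the 3 per length, with 43.0 CPM per kb in CL basal against 39.0 in Ctrl basal. The ratio of *Cdkn1c* to *Cdkn1a* was 0.149 in CL basal against 0.150 in Ctrl basal, a log2 change of -0.01 (-0.20 to 0.18).

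*Meg3* (chromosome 12, 109541001 to 109571726, plus strand), a maternally expressed long noncoding RNA, had 1156 counts in CL basal against 1049 in Ctrl basal, which gives a log2 fold change of 0.14 (0.01 to 0.26). The halved interval ran from -0.04 to 0.31 and included no change. Besides *Mir770*, 3 entries lie wholly within its exons. *Mir1906-1* had 27 and 15 counts over 80 bases, *Gm27300* had 4 and 5 over 97, and the opposite-strand *Gm26906* had 19 and 15 over 1228. *Dlk1* (chromosome 12, 109452823 to 109463336, plus strand), the paternally expressed gene of the same domain, had 26 and 24 counts (0.10, -0.75 to 0.98), so the counts were too few for a narrower interval. The ratio of *Dlk1* to *Meg3* was 0.0225 in CL basal against 0.0229 in Ctrl basal, with a log2 change of -0.02 (-0.89 to 0.85).

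**Figure D2:**
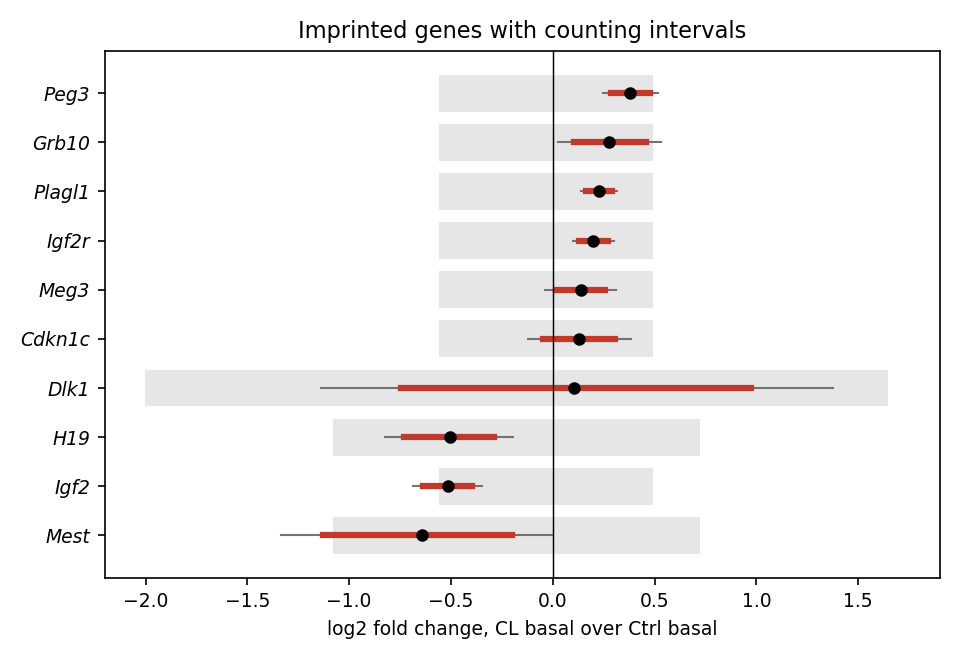
Log2 fold change of CL basal over Ctrl basal for each imprinted gene (black points), with the 95% counting interval (red) and the halved interval (thin grey line), 1 library per group. Grey bars span the middle 95% of all genes of the same count class, from -0.56 to 0.49 for genes with 1000 or more and under 10000 counts. All 10 points lie inside their bars, with *Igf2* nearest to a lower edge.

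Split by parental copy, 1 of the 5 maternally expressed genes (*H19*) and 2 of the 5 paternally expressed genes (*Igf2* and *Mest*) had intervals wholly below no change. Intervals wholly above it were found for 3 maternally expressed genes and 2 paternally expressed genes. With halved intervals *Meg3* was no longer among them, which left 2 of each, and the counts below were the same. Over all tested genes the shares were 25.4% below and 25.2% above, or 17.4% and 18.5% with halved intervals. The medians were 0.14 and 0.10 on the log2 scale. The 10 genes among all others are shown in the plot of change against abundance. Of the 7 that belong to the class of 1000 or more and under 10000 counts, 1 had an interval wholly below no change and 5 wholly above, where 27.5% and 36.6% of the class did. With halved intervals these were 1 and 4, where 21.4% and 28.8% of the class did.

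**Figure D3:**
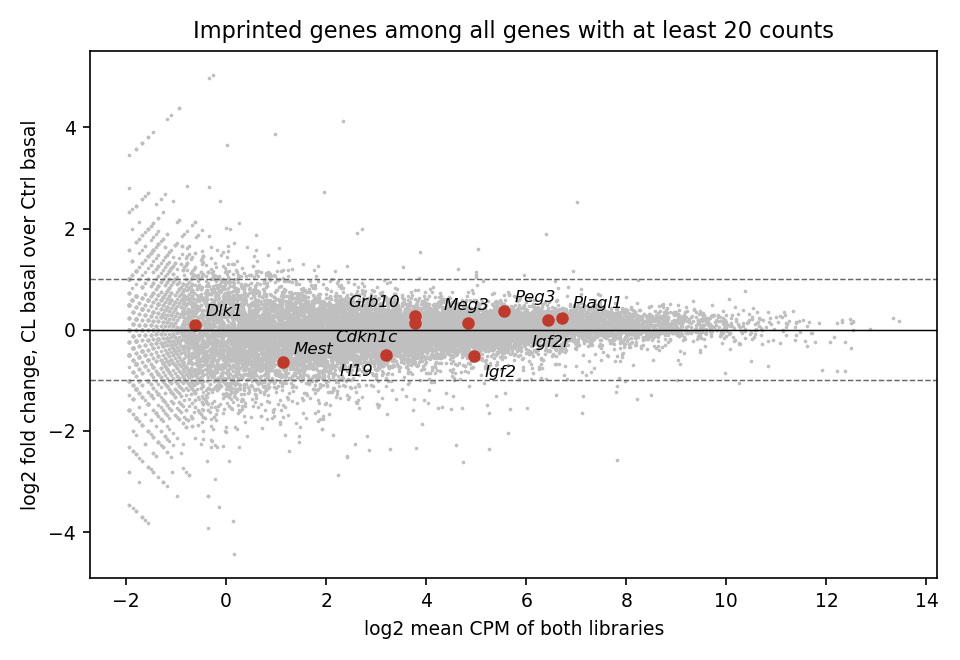
Log2 fold change (CL basal over Ctrl basal) against log2 mean CPM for the 17356 genes with at least 20 counts (grey) and the 10 imprinted genes (red), with dashed lines at a 2-fold change. The 10 genes lie within the cloud, between -0.64 (*Mest*) and 0.38 (*Peg3*).

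Genes that share a domain with one of the 10 were compared next. Of 32 such genes and hosted small RNAs, 30 were rows of the table, 15 had at least 20 counts and 7 had 0 counts in both libraries. Among the 15, 12 lay below 0 and 3 above, with a median of -0.24, where 51.8% of all tested genes lay below 0. The 95% interval lay wholly below no change for 6 and wholly above it for 1, where 25.4% and 25.2% of all tested genes did. *Mir770* was the only entry past 2-fold, with the 21 counts given above over 94 bases of *Meg3*. Its log2 fold change was -1.67 (-4.12 to -0.48), and the halved interval ran from -5.35 to 0.21. With halved intervals, *Osbpl5* and *Cobl* were the only neighbours with an interval that left out no change, both lower. These 2 of 15 stand beside 17.4% of all tested genes lower and 18.5% higher by the same measure, and the 1 entry past 2-fold beside 4.79% lower.

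In the domain of *Cdkn1c*, the noncoding RNA *Kcnq1ot1*, which silences its neighbours on the paternal copy, had 602 counts in CL basal against 698 in Ctrl basal (-0.22, -0.38 to -0.06, halved interval -0.44 to 0.01). *Osbpl5*, a lipid transfer protein, had 1044 and 1313 counts (-0.33, -0.45 to -0.22), and *Nap1l4*, a histone chaperone, had 6929 and 7197 (-0.06, -0.11 to -0.01). *Phlda2*, which limits placental growth, had 118 and 90 counts (0.38, -0.02 to 0.80). *Tssc4* (0.03), *Cd81* (-0.08) and *Kcnq1* (-0.33) had intervals that included no change. With halved intervals *Osbpl5* was the only tested gene of this domain whose interval left out no change. *Slc22a18*, below the filter, had 0 counts in CL basal against 10 in Ctrl basal.

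Beside *Meg3*, the noncoding RNA *Rian* had 547 and 470 counts (0.21, 0.03 to 0.40, halved interval -0.04 to 0.47) and *Mirg* had 60 and 63 (-0.07, -0.61 to 0.46). The ratio of *Rian* to *Meg3* was 0.473 in CL basal against 0.448 in Ctrl basal, so these RNAs of 1 domain stood in nearly the same proportion in both libraries (log2 change 0.08, -0.14 to 0.30). *Airn*, the antisense RNA that silences *Igf2r* on the paternal copy, had 185 and 219 counts (-0.24, -0.54 to 0.04), and it shares no exonic base with *Igf2r*. The ratio of *Airn* to *Igf2r* was 0.0518 in CL basal against 0.0707 in Ctrl basal, a log2 change of -0.45 (-0.75 to -0.15, halved interval -0.88 to -0.02). Next to *Grb10*, *Cobl*, an actin nucleator, had 608 and 863 counts (-0.51, -0.66 to -0.36), in the direction opposite to *Grb10*. *Zim1*, beside *Peg3*, had 10 and 16 counts (-0.59, -1.98 to 0.55).

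**Figure D4:**
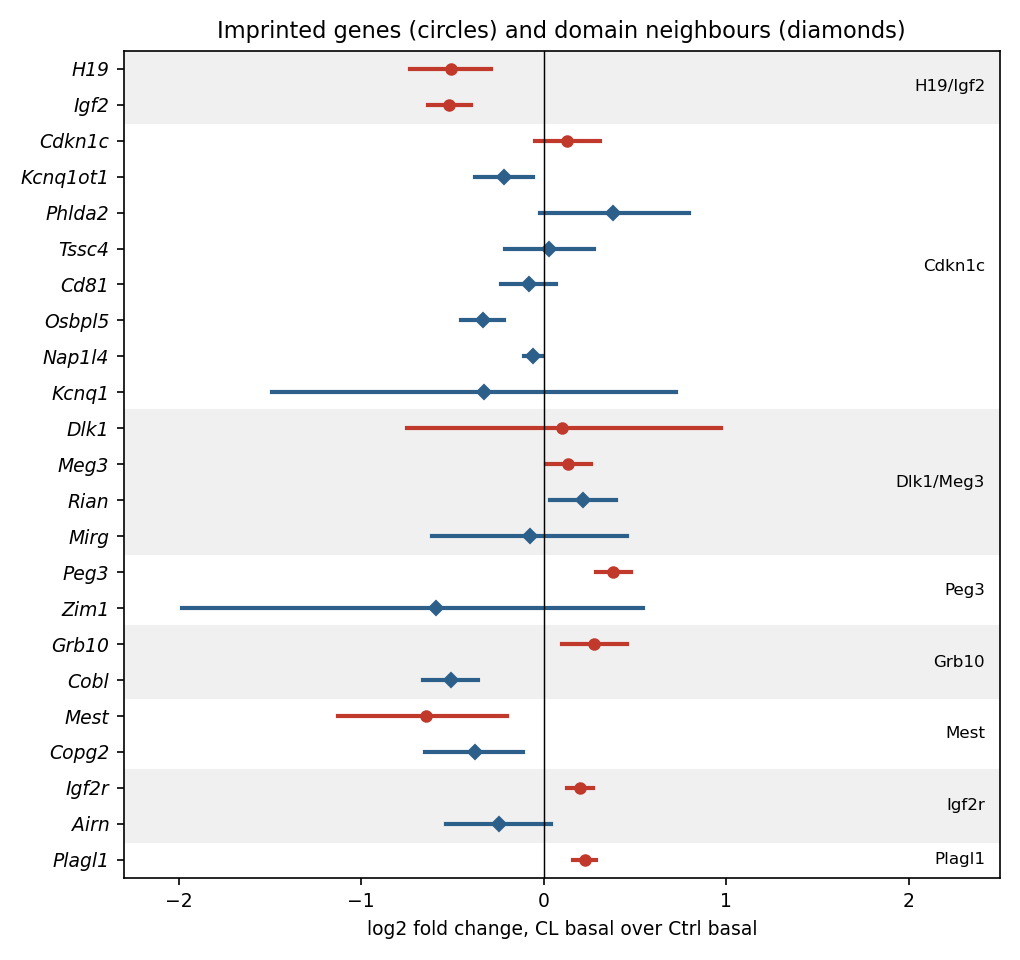
Log2 fold change with 95% counting interval for the imprinted genes (red circles) and for neighbours in their domains with at least 20 counts (blue diamonds), grouped by domain, 1 library per group. *Mir675* and *Mir770*, which lie wholly within a host exon, are not drawn. *H19* and *Igf2* sit side by side near -0.5, while *Grb10* and *Cobl* lie on opposite sides of 0.

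Of 35 other imprinted genes outside these domains, 31 had at least 20 counts. Of these, 13 lay below 0, where 51.8% of all tested genes did, and 18 above, with a median of 0.09. The interval lay wholly below no change for 7 and wholly above for 9, or 6 and 7 with halved intervals. These shares were close to those over all tested genes, 25.4% and 25.2%, or 17.4% and 18.5% with halved intervals. Only *Ndn*, a growth suppressor of neurons and fat cell precursors, just reached 2-fold, with 38 counts in CL basal against 78 in Ctrl basal (-1.004, -1.64 to -0.46, halved interval -1.91 to -0.22). Over all tested genes, 4.79% were at least 2-fold lower and 2.07% at least 2-fold higher. The genes of the list with the most counts were *Gnas*, the stimulatory G protein subunit, at 20228 and 18241 (0.15, 0.12 to 0.17), and *Ube3a*, a ubiquitin ligase, at 4064 and 3294 (0.30, 0.23 to 0.37). Both overlap rows on the other strand: *Gnas* shares 1469 exonic bases with *Gm20721*, which had 13826 and 12597 counts, and *Ube3a* shares 1796 with *9330162G02Rik*, which had 731 and 480, and further stretches with *Gm44560* and *Snhg14*. The other imprinted genes thus went both ways, as the 10 genes did.

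Further parts of the IGF pathway and the non-imprinted relatives of the 10 genes set these values in context. *Igf1*, the other IGF ligand, had 52 counts in CL basal against 114 in Ctrl basal (-1.11, -1.64 to -0.65), and *Dlk2*, the relative of *Dlk1*, had 40 and 85 (-1.05, -1.67 to -0.53) and shares 51 bases with *Abcc10* on the other strand. These were the 2 of 9 relatives past 2-fold, both lower, where 4.79% of all tested genes were lower by that much. *Grb14*, an adaptor of the same family as *Grb10*, had 146 and 246 counts (-0.75, -1.06 to -0.46), on the other side of 0 from *Grb10*. *Igf2* had 19 counts per *Igf1* count in CL basal against 12.4 in Ctrl basal (log2 change 0.62, 0.12 to 1.14, halved interval -0.10 to 1.37). *M6pr*, the other mannose 6-phosphate receptor, was level with 5001 and 4960 counts (0.01, -0.05 to 0.06), unlike the value of *Igf2r* given above.

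Of 14 IGF receptors, adaptors and binding proteins, 12 were tested and none passed 2-fold, a size passed by 4.79% of all tested genes downward and 2.07% upward. With halved intervals 4 were lower and 4 higher, where 17.4% and 18.5% of all tested genes were. The lower ones were all binding proteins, *Igfbp2* with 869 and 1232 counts (-0.51, -0.63 to -0.38), *Igfbp7* (-0.31), *Igfbp4* (-0.21) and *Igfbp6* (-0.14). The higher ones were *Igfbp3*, the receptor *Igf1r* and the insulin receptor substrates *Irs1* (0.34) and *Irs2* (0.13). *Igfbp5*, a binding protein of mammary epithelium, had the most counts with 59499 and 59176 (0.004, -0.01 to 0.02), followed by *Igfbp3* with 14638 and 12275 (0.25, 0.22 to 0.28). The receptor *Igf1r*, through which IGF2 signals, had 2818 and 2403 counts (0.23, 0.15 to 0.31).

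Markers of other cell types were compared because *Igf2*, *H19*, *Mest*, *Ndn* and *Igf1* are also known from stromal cells and muscle. All of these genes were lower in CL basal, while 7 of the 10 imprinted genes lay above 0. The sort was set to leave out blood cells by CD45, endothelial cells by CD31, and cells without CD24 or with low CD29, the gate of luminal cells. Several marker lists were also lower in CL basal. Over all tested genes, 51.8% lay below 0, 4.79% were at least 2-fold lower and 2.07% at least 2-fold higher. Pericyte markers summed to 78.1 CPM in CL basal against 118.5 in Ctrl basal, and 5 of 5 tested genes lay below 0, with *Rgs5* (-0.48) and *Notch3* (-0.71) the most counted. Fibroblast markers summed to 212 and 260.5 CPM, with 7 of 8 genes below 0 and a median of -0.42. The most counted of them were *Col3a1* (0.10) and *Col1a2* (-0.23), and *Lum* was past 2-fold with 34 and 128 counts (-1.86, -2.51 to -1.36). Endothelial markers summed to 353 and 432 CPM, with 5 of 7 below 0 and a median of -0.30. *Cdh5* (-0.32) and *Pecam1*, the gene of CD31 (-0.37), were the most counted. Above 0 were *Vwf* (0.03) and *Emcn*, with 215 and 154 counts (0.47, 0.17 to 0.79, halved interval 0.04 to 0.92).

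Skeletal muscle markers were scarce, at 2.78 and 8.50 CPM in sum, and 7 of 7 tested genes lay below 0, against 51.8% of all tested genes. Those past 2-fold were *Myh4* with 4 and 80 counts, *Ckm* with 2 and 26, *Tnnt3* with 13 and 43 and *Mylpf* with 22 and 57, all proteins of muscle fibres. Of all tested genes, 4.79% were at least 2-fold lower. *Pax7* and *Myf5*, which mark muscle stem cells, had 0 counts in both libraries. Adipocyte markers summed to 92.3 and 124.6 CPM (3 of 3 tested genes below 0), nearly all of it *Fabp4* (-0.43), which endothelial cells also express. *Lep* had 52 and 88 counts (-0.74), *Plin1* had 12 and 30 (-1.20), and *Adipoq*, under the filter, had 10 and 5.

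Luminal markers summed to 2584 and 4611 CPM, with 13 of 13 below 0 (against 51.8% of all tested genes) and a median of -0.86. The luminal keratins *Krt8* (-0.71) and *Krt18* (-0.86) were the most counted. Past 2-fold were *Krt19* (-1.11), *Aldh1a3* (-1.29) and *Wfdc18* (-1.54), a size passed downward by 4.79% of all tested genes. Macrophage markers summed to 24.97 and 35.4 CPM with 4 of 5 tested genes below 0, and most of the difference was in *Cd14*, with 468 and 748 counts. Also below 0 were *Cd68* with 185 and 233 counts, *Lyz2* with 118 and 138 and *Mrc1* with 86 and 168, while *Csf1r* had 89 and 64. *Adgre1* (10 and 7 counts) and *Fcgr1* (4 and 0) were under the filter. Schwann cell markers summed to 171.4 and 175.5 CPM with 3 of 4 below 0 and a median of -0.07. The most counted were *Sox10* (-0.02), with 5278 of the 6590 counts of this list in CL basal, and *Mbp* (0.01). Which cells gave the *Cd14* and *Sox10* counts was not tested. Lymphoid markers summed to 16.3 and 17.0 CPM with 3 of 4 below 0 and a median of -0.03, with *Ptprc* (-0.05) and *Cd79a* (0.18) the most counted. Sorted bulk libraries do not tell fewer cells of a type from less RNA per cell, and the part of these cells in the lower counts of *Igf2*, *H19* and *Mest* was not tested.

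**Figure D5:**
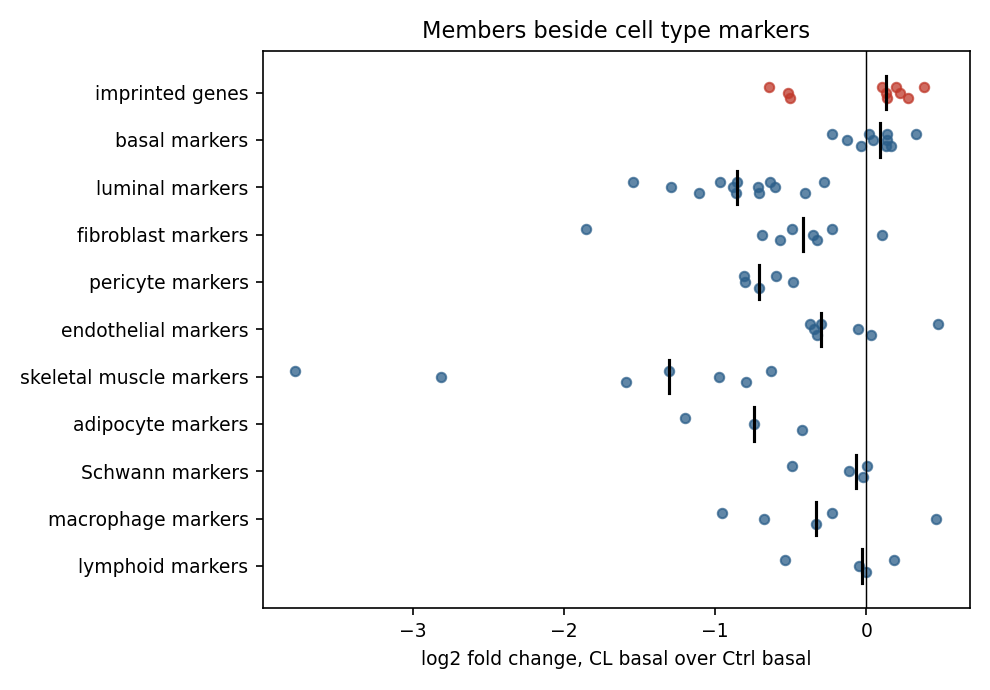
Log2 fold change (CL basal over Ctrl basal) of the imprinted genes (red) and of cell type markers with at least 20 counts (blue), 1 point per gene, with the median of each list as a black bar. The medians are 0.13 for the imprinted genes, 0.09 for basal markers, -0.42 for fibroblast markers, -0.71 for pericyte markers and -0.86 for luminal markers.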

How the data were processed

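Total RNA was isolated from sorted basal cells, and 1 library per group was sequenced. The authors deposited raw read counts per gene over annotated exons, not normalized, in the column layout of featureCounts. Per the labels the builds were GRCm38 and mm10, and aligner, annotation release, use of strand and filters are not given in the sources used here. Of 49492 rows, 47154 were found by name at an overlapping place in GENCODE M21, 91.0% of them with the same start and end. The deposited ratio and log2 ratio, the authors' own comparison, were not used.

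Counts were scaled by trimmed mean of M-values (TMM) factors from edgeR 4.0.16 in R 4.3.3, 0.9869 for CL basal and 1.0133 for Ctrl basal, computed on the 17356 genes whose summed count reached 20. Log2 fold changes used a prior count of 2, and folds given in words used none. Levels are CPM divided by exonic length in kb. Exact intervals were taken from scipy (1.17.1, Python 3.11.15). A model with replicate spread could not be fitted to 1 library per group. The interval code was tested on simulated counts. Members and gene lists were chosen with earlier results of these data known. Named were the 10 genes, domain neighbours with at least 20 counts, and from further lists, markers included, the genes past 2-fold and the 2 with most counts. A few others are named by choice after their values were seen. Alternatives were other scalings (total counts, DESeq2 1.42.0 size factors, upper quartile), prior counts of 0.5 and 5, other filters, a thinned library, halved counts, a 1.5-fold threshold and removal of trends on mean expression or gene length.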

Additional observations from a re-analysis of the deposited data

How the results depend on the processing

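The signs of the 10 genes were kept in all 109 values computed under alternative scalings, priors, filters, thinning, halved counts and trend removal, and 108 of these stayed within the 95% interval. The other was *Plagl1*, at 0.16 with a mean-expression trend taken out, and the cause was not tested. The values under other filters equal the main ones by construction, because a filter only chose which genes were kept. Their agreement therefore carries no weight. *Igf2* ran from -0.55 to -0.51, *H19* from -0.54 to -0.46, *Mest* from -0.68 to -0.54 and *Peg3* from 0.34 to 0.39. A threshold of 1.5-fold gave 1 gene lower (*Mest*) in place of 0. *Dlk1* has no value with at least 100 counts. Over all genes, 831 were at least 2-fold lower and 360 higher. These counts were 3208 and 1342 without a filter, 247 and 65 with at least 100 counts, and 2029 and 1098 at 1.5-fold. The share of lower genes among those past 2-fold was 69.8%, against 57.6% with that trend taken out and 79.2% with at least 100 counts. No paired analysis was possible because neither group held more than 1 sample. Depth limited *Dlk1* and *Mest* most, with 50 and 170 counts over both libraries.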

Other observations

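Of 16 genes that keep or remove DNA methylation at imprints, 14 had at least 20 counts, 4 of them below 0 and 10 above, with a median of 0.05, and no value passed 1.5-fold, a size passed by 11.7% of all tested genes downward and 6.33% upward. With intervals from counts divided by 2, called halved, 4 were higher and 1 was lower, where 18.5% and 17.4% of all tested genes were. *Trim28*, the co-repressor recruited to imprints, had 6511 counts in CL basal against 5112 in Ctrl basal (log2 fold change 0.35, 95% counting interval 0.29 to 0.40). *Dnmt1*, which copies methylation at replication, had 5260 and 5003 counts (0.07, 0.01 to 0.12, halved interval -0.01 to 0.15). *Zfp57* and *Zfp445*, the zinc finger proteins that mark imprints, had 49 and 66 counts (-0.42, -0.997 to 0.12) and 1782 and 1990 counts (-0.16, -0.26 to -0.07). *Dnmt3l* and *Dppa3*, genes of germ cells and the early embryo, had at most 2 counts in either library.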
